A study of Mus musculus with 7 samples.

Results

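The contractile machinery of fast-twitch skeletal muscle was followed through 10 genes, Acta1, Ckm, Mylpf, Tnnc2, Tnnt3, Myh1, Myh4, Atp2a1, Pvalb and Actn3, in RNA-seq of dissected mouse growth plates. The genes were taken by symbol from a list chosen with earlier results of these data known. All 10 were found among 43346 gene rows. RNA came from 7 male C57BL/6JxCAST/EiJ F1 mice, aged 21 days, whose proximal and distal tibial growth plates were dissected and homogenized. All 7 mice belonged to 1 group, for which no treatment is given. For each gene the tables give an estimated number of reads from the C57BL/6J (B6) allele and from the CAST/EiJ (CAST) allele, so that the question posed by the design is whether the alleles of a gene differ within the same animals.

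Fast-twitch fibres contract by the sliding of myosin thick filaments along actin thin filaments. Calcium bound by the troponin complex allows myosin heads to reach actin, the calcium pump of the sarcoplasmic reticulum ends the contraction by removing that calcium, and creatine kinase regenerates the ATP used. These proteins exist in fast, slow and developmental versions encoded by separate genes. The growth plate itself is cartilage and contains no muscle fibres, although muscle lies next to the tibia.

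The table totals ranged from 14098019 to 37849667 estimated counts per mouse. Cartilage of the labelled tissue was present: Col2a1 stood at 38278 to 71280 CPM (counts per 1000000, the count relative to the mouse's total). Bone was present too. Its collagen Col1a1 stood at 33234 to 62971 CPM and exceeded Col2a1 in mice 1 and 2. The bone genes examined summed to between 35963 CPM in mouse 7 and 65280 CPM in mouse 2. The 10 cartilage genes examined summed to between 56424 CPM in mouse 8 and 93244 CPM in mouse 4. The muscle genes outside the list, Tnni2, Myl1, Ttn, Neb, Des and Mb, were all detected and summed to between 3681 CPM in mouse 4 and 9269 CPM in mouse 1. The heart genes Myh6, Nppa, Tnni3, Tnnt2 and Mybpc3 together stayed at 1.16 to 2.45 CPM, and Nppa was at 0 in 2 of the 7 mice. Reads from the X chromosome were 90.2% to 91.6% B6 and mitochondrial reads 99.98% to 99.99% B6 in these male mice. The B6 allele was thus maternal in every mouse, and an effect of strain cannot be told apart from an effect of parent of origin.

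The 10 genes made up a measurable share of each library. Their summed level was lowest in mouse 4, at 4720 CPM or 0.472% of all counts, had a median of 6368 CPM and was highest in mouse 1, at 10553 CPM or 1.06% of all counts. Mouse 1 ranked first or second for all 10 genes and mouse 8 for 8 of them. Mouse 4 was among the lowest 2 mice for 9 of the genes, mouse 5 for 6 and mouse 7 for 4. These ranks are those of CPM, and other scales changed the lowest mouse of some genes. In homogenized tissue, fewer muscle fibres and less RNA per fibre cannot be told apart. The sum of these other muscle genes, to which Ttn contributed most, had the same extremes, lowest in mouse 4 and highest in mouse 1. Singly, Neb was highest in mouse 3, and Tnni2 and Mb were lowest in mouse 7. Markers of other cells also moved between mice. The sum of 3 erythroid genes was highest in mice 5 and 7, at 8411 and 7828 CPM against 3409 to 5968 CPM in the others, and that of 3 neutrophil genes in the same mice, at 1894 and 1802 CPM against 887 to 1362. The sum of 3 endothelial genes ranged from 155 CPM in mouse 8 to 230.5 CPM in mouse 1. The part of tissue composition in these levels was not tested.

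**Figure D1:**
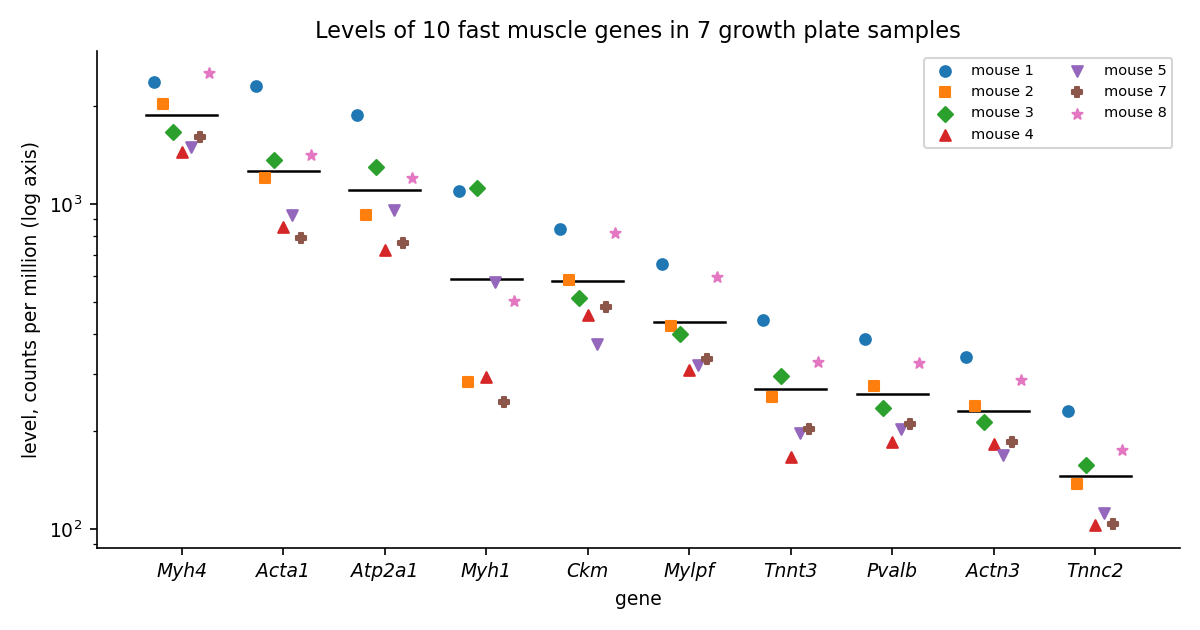
Level of each of the 10 genes in CPM (vertical, log axis) in each of the 7 mice (symbols), with the mean as a horizontal line. Mouse 1 gave the highest value for 8 genes, and the Myh1 values spread over 4.56-fold between mice.

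Myosin heavy chains, the motor proteins of the thick filament, included the genes that varied least and most between mice. Myh4 (chr11:67238029-67260446, plus strand, GRCm38) encodes the heavy chain of the fastest type IIb fibres. In mice 1, 2, 3, 4, 5, 7 and 8, respectively, its level was 2375, 2040, 1672, 1449, 1495, 1607 and 2527 CPM, a mean of 1881 ± 436 CPM (SD, n = 7). Myh1 (chr11:67200052-67224575, plus strand) encodes the heavy chain of type IIx fibres. Over the same mice its level was 1095, 285, 1125, 295, 576, 247 and 504 CPM, a mean of 589 ± 376 CPM. Myh4 therefore varied least of the 10 genes, by 1.74-fold between the highest and lowest mouse, and Myh1 most, by 4.56-fold. A spread of at least 2-fold was seen in 7.41% of the 1660 genes that reached 1000 counts in each mouse (called well-counted genes here), and in all of the 10 genes except Myh4. With TMM-scaled CPM or with 7SL, 7SK and mitochondrial RNA left out of the total, Mylpf, Pvalb and Actn3 also stayed under 2-fold, at 1.81- to 1.97-fold. For those 1660 genes the median spread was 1.42-fold, and 0.12% of them spread at least as widely as Myh1.

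The regulatory light chain Mylpf (chr7:127208890-127214298, plus strand) sits on the neck of the fast heavy chains. It ranged from 309 CPM in mouse 4 through a median of 399 to 654 CPM in mouse 1. The thin filament was represented by skeletal alpha-actin and by subunits of fast troponin. Acta1 (chr8:123891769-123894751, minus strand), the actin of adult skeletal muscle, was at 2311 CPM in mouse 1 and at 1203, 1367, 849, 924, 785 and 1414 CPM in mice 2, 3, 4, 5, 7 and 8. Mouse 1 thus lay well above the other 6 mice for Acta1. Tnnt3 (chr7:142498836-142516009, plus strand), the subunit that ties troponin to tropomyosin, ranged from 167 to 440.0 CPM with a median of 255. Tnnc2 (chr2:164777161-164779967, minus strand), the calcium-binding subunit, ranged from 103 to 232 CPM with a median of 138. Both were lowest in mouse 4 and highest in mouse 1, although with TMM-scaled CPM Tnnc2 was lowest in mouse 7.

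Actn3 (chr19:4861216-4877909, minus strand) anchors actin at the Z-disc of fast fibres and ranged from 169 CPM in mouse 5 to 339 in mouse 1, with a median of 215. Ckm (chr7:19404776-19422841, plus strand), the cytosolic creatine kinase of muscle, ranged from 373 CPM in mouse 5 to 839.6 in mouse 1, with 816 in mouse 8. Atp2a1 (chr7:126445858-126463108, minus strand) encodes the calcium pump of fast fibres and ranged from 724 to 1883 CPM, with a median of 959.7. Pvalb (chr15:78191114-78206400, minus strand) encodes parvalbumin, a soluble calcium buffer of fast fibres, and ranged from 186 to 385 CPM, with a median of 235. Atp2a1 and Pvalb were also lowest in mouse 4 and highest in mouse 1. With TMM-scaled CPM the lowest was mouse 7 for Atp2a1 and mouse 5 for Pvalb.

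Levels of different genes were compared only per kilobase of annotated exon. On that scale Acta1 was highest, at 823 ± 341 CPM per kilobase, followed by Mylpf at 408 ± 130.2, Atp2a1 at 318 ± 116, Myh4 at 313 ± 72.5, Pvalb at 250.02 ± 69.9, Ckm at 199 ± 62.0, Tnnc2 at 183 ± 58.5, Tnnt3 at 170.4 ± 59.4, Myh1 at 92.8 ± 59.1 and Actn3 at 79.7 ± 21.6. Acta1 exceeded Mylpf in 7 of 7 mice, by 0.98 ± 0.23 on the log2 scale. In this order 3 pairs of neighbours had differences smaller than their spread over mice. Atp2a1 exceeded Myh4 in 3 of 7 mice (log2 difference -0.01 ± 0.35), Ckm exceeded Tnnc2 in 4 (0.13 ± 0.22), and Myh1 exceeded Actn3 in 3 (0.01 ± 0.81). The other neighbours kept their order in 7 of 7 mice. The order depends on the exon length used, which covers all annotated transcripts of a gene, and other lengths were not tried.

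The ratio of 2 genes within a mouse does not depend on the library total. For mice 1, 2, 3, 4, 5, 7 and 8, the count ratio of Myh1 to Myh4 was 0.461, 0.140, 0.673, 0.203, 0.385, 0.153 and 0.199. The ratio was highest in mice 3, 1 and 5, and its range was 4.82-fold. Against Myh4, Atp2a1 ranged over 1.75-fold and Acta1 over 1.99-fold, whereas Ckm ranged over 1.42-fold and Pvalb and Actn3 over 1.26-fold each. Atp2a1 to Myh4 was again highest in mice 1, 3 and 5, at 0.793, 0.777 and 0.642, against 0.454 to 0.4998 in the other 4.

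Myh2 encodes the heavy chain of the more oxidative IIa fibres, and Mb encodes myoglobin, an oxygen store of oxidative fibres. Myh2, Mb and the slow heavy chain Myh7 were examined here after their values were seen. The ratio of Myh2 to Myh4 was 0.151, 0.143 and 0.0844 in mice 1, 3 and 5, and 0.024 to 0.0448 in the other 4. The ratio of Mb to Myh4 was 0.104, 0.094 and 0.0507 in mice 1, 3 and 5, and 0.0228 to 0.0305 in the others. Myh7 to Myh4 was also highest in those 3 mice, at 0.00303, 0.00421 and 0.0047, against 0.000473 to 0.0019. These mice were not a labelled group, so the separation was not tested.

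Per kilobase, Myh4 took 56.7% to 85.5% of the counts of 6 sarcomeric heavy chain genes, with a median of 81.5%. Myh1 took 11.3% to 36.1% (median 15.7%) and Myh2 1.73% to 8.10% (median 3.22%). The slow chain Myh7 stayed at 0.0269% to 0.227%, the neonatal chain Myh8 at 0.114% to 0.229% and the embryonic chain Myh3 at 0.056% to 0.135%. The slow and developmental chains were thus a minor part of the heavy chain signal in every mouse.

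**Figure D2:**
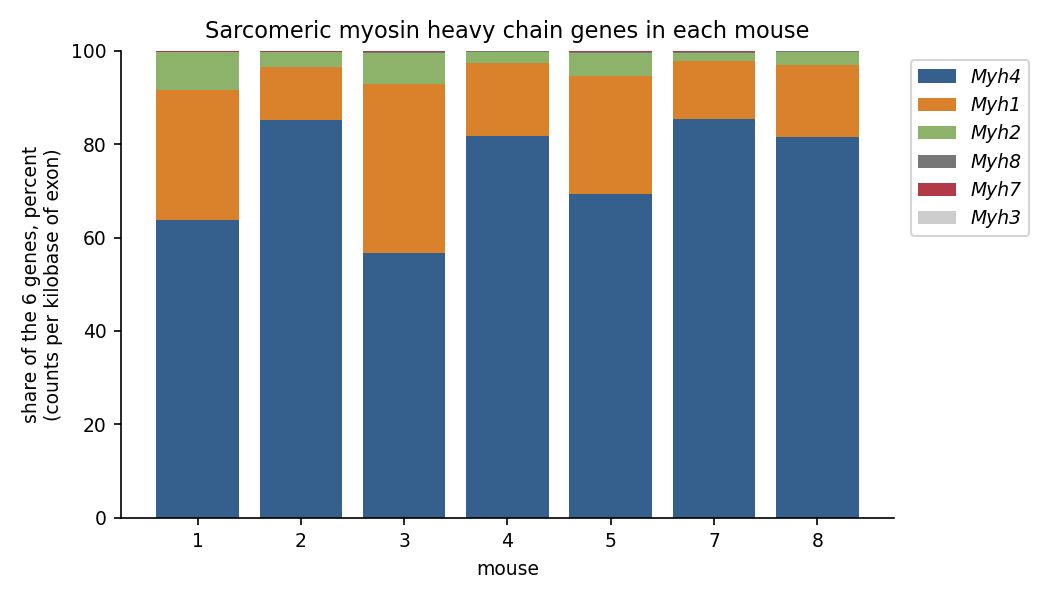
Share of each of 6 sarcomeric myosin heavy chain genes, in percent of their summed counts per kilobase of exon (vertical), in each mouse (bars). Myh4 was the largest share in all 7 mice, and Myh1 took 27.8%, 36.1% and 25.3% in mice 1, 3 and 5 against 11.3% to 15.7% in the others.

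Myh1 and Myh4 lie 13.5 kb apart in the same orientation. The 250 bases before the start of each in RefSeq (GRCm38.p6, plus strand) are shown because the genes are neighbours whose levels and allele ratios parted. Capitals mark the 4 runs of at least 10 bases that occur in the same order in both, 55 bases of each sequence. The windows are chr11:67199852-67200101 for Myh1 and chr11:67237562-67237811 for Myh4. They are the reference (B6) sequence.
Myh1: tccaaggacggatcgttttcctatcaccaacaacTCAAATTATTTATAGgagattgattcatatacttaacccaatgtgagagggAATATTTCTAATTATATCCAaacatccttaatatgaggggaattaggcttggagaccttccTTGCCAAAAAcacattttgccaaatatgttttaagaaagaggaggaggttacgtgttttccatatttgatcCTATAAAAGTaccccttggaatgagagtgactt
Myh4: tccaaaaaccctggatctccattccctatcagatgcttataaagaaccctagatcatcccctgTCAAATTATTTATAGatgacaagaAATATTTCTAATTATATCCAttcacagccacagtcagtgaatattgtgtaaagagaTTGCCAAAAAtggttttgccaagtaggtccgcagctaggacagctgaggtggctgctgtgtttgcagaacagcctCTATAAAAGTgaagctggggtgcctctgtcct

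Promoter windows of 250 bases, from a set of RefSeq starts, were at hand for 8 of the 10 genes and were searched on both strands for 4 motifs. The set used held no window for Tnnt3 and Actn3. Pvalb had 2 windows and was counted if either held the motif, the MEF2 site being in the one and the E-box in the other, whereas the shares of all promoters are per window. The E-box, CANNTG, the site of MyoD-family factors, occurred in 7 of the 8 genes, all but Myh1, and in 66.2% of 32851 promoters. The MEF2 site occurred in Myh1, Myh4 and Pvalb and in 2.92% of all promoters. The CArG box, the site of serum response factor, occurred in Acta1 and Myh4 and in 1.47% of all promoters. The letters TATAAA occurred in Acta1, Myh1 and Myh4 and in 12.4% of all promoters, and in Myh1 and Myh4 1 match lies within the MEF2 match. A match is a description of the letters and not of a bound site. The window of Acta1, the gene with the highest level per kilobase, is chr8:123894776-123895025 (minus strand, GRCm38.p6), with 2 E-boxes, a CArG box and TATAAA in capitals, in that order.
Acta1: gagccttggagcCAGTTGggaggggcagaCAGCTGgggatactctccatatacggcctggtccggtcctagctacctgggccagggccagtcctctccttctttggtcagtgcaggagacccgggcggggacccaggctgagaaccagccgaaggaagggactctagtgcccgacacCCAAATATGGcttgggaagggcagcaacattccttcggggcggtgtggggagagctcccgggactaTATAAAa

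The alleles were then compared. In the test of the study's kind, edgeR's likelihood-ratio test of CAST against B6 without a term for the mouse, none of the 10 genes was called at a false discovery rate (FDR, Benjamini-Hochberg over all tested genes) under 0.20. This test called 32.6% of 21805 genes, and 30.5% of the well-counted ones. Neither set was limited to the autosomes, and X-linked ratios in these males are not a comparison of alleles. The same limit holds for the shares of all or of well-counted genes given below. The smallest values among the 10 were FDR 0.249 for Acta1 and 0.27 for Myh1. No member had an unadjusted p under 0.05, and edgeR's quasi-likelihood test and DESeq2 without a mouse term also called 0.

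A library holds both alleles of its mouse, so that they can be compared within the animal by a replicate block. The calls then changed. The quasi-likelihood test with the block called 7 of the 10, 5 of them higher on CAST (Acta1, Tnnt3, Atp2a1, Ckm and Mylpf) and 2 higher on B6 (Myh1 and Actn3). It called 37.6% of all 21805 genes, 18.3% with CAST higher and 19.3% with B6 higher, and 63.4% of the well-counted genes. The 7 of 10 is therefore close to the share among genes of similar count. The likelihood-ratio test with the block called 9 of the 10, adding Tnnc2 and Pvalb, against 42.7% of all genes. DESeq2 with the block called 8, adding Tnnc2, against 33.3% of the 20308 genes to which it gave an adjusted p. For neither of these tests was the share among well-counted genes computed. The 9 and the 8 therefore have no comparison with genes of similar count. The same 7 genes leaned the same way in 7 of 7 mice, as did 23.1% of all genes and 46.7% of the well-counted ones. Their exact sign-flip permutation p was 0.0156, the smallest that 7 mice allow, with an adjusted p of 0.0684. Any gene leaning the same way in 7 of 7 mice must give this p, so it adds nothing to that count of mice. In the sign-flip test Tnnc2 also fell under 0.20, with an adjusted p of 0.177. That test put 35.3% of all genes under 0.20.

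**Figure D3:**
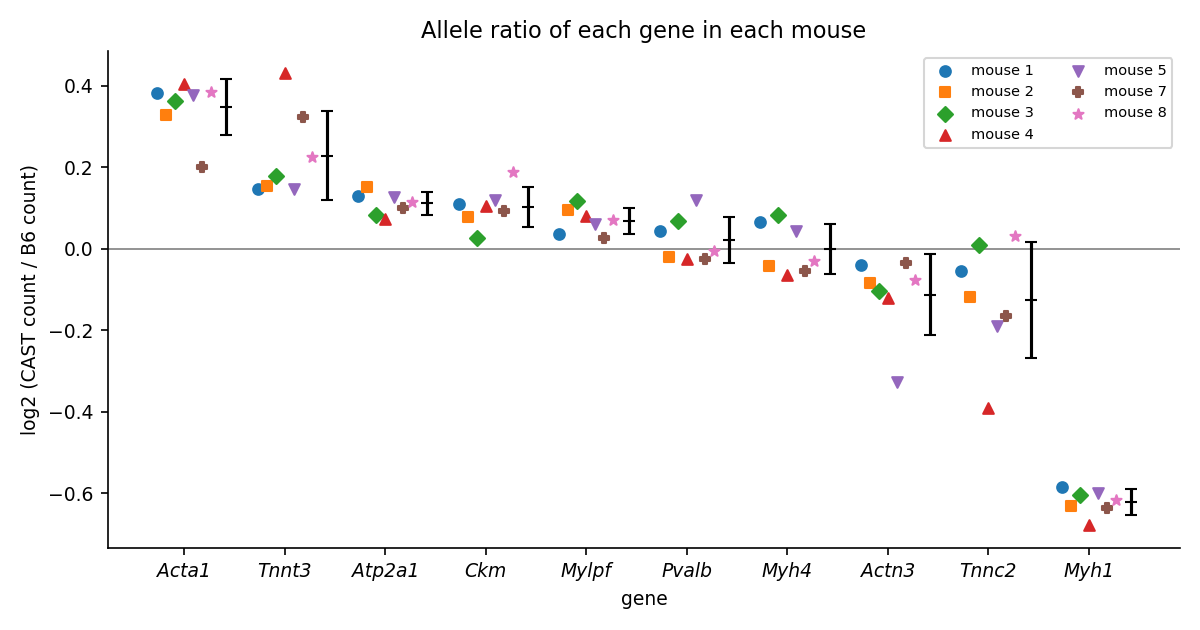
Log2 ratio of the CAST to the B6 count (vertical) of each gene in each of the 7 mice (symbols), with the mean and SD as a black bar beside them. Myh1 lay between -0.68 and -0.59 in all 7 mice and Acta1 between 0.20 and 0.40, while Myh4 straddled 0.

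Myh1 had the greatest allele difference of the 10. Its B6 counts were 20102, 5144, 18728, 3814, 13132, 2116 and 7226 for mice 1, 2, 3, 4, 5, 7 and 8. The CAST counts of the same mice were 13399, 3321, 12319, 2382, 8670.4, 1361 and 4709.8, lower every time. The CAST share was therefore 38.4% to 40.0% in every mouse although the total varied, with a mean log2 ratio of -0.62 ± 0.03 (SD, n = 7). The FDR was 0.27 without the block and 1.03e-07 in the blocked quasi-likelihood test. edgeR's coefficient of variation of the allele counts was 0.462 for Myh1 without the block. With the block, which takes out differences between mice, the coefficient was 0.0133. Of the well-counted genes, X-linked ones not left out, 7.83% had a mean ratio at least as far from 0.

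Myh4 differed from its neighbour. Its log2 ratio was 0.06, -0.04, 0.08, -0.06, 0.04, -0.05 and -0.03 in mice 1, 2, 3, 4, 5, 7 and 8, and the CAST share was 48.9% to 51.4%. Neither the unblocked FDR (1.0) nor the blocked one (0.628) passed. The difference between the ratios of Myh1 and Myh4 within a mouse was -0.62 ± 0.04 and negative in 7 of 7 mice. Its exact permutation p was 0.0156, with the same value after adjustment over the 3 pairs of genes compared. The comparisons of these 3 pairs were not planned. A pair whose difference has the same sign in all 7 mice must give this p, so it adds nothing to that count of mice. Mylpf had a mean ratio of 0.07 ± 0.03 and a CAST share of 50.5% to 52.0%, with an FDR of 0.88 without and 0.000919 with the block. Its difference, 1.05-fold, was the smallest of those called by the blocked quasi-likelihood test.

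In the thin filament, Acta1 was 1.27-fold higher on CAST. Its log2 ratio was 0.38, 0.33, 0.36, 0.40, 0.38, 0.20 and 0.38 in mice 1, 2, 3, 4, 5, 7 and 8, a mean of 0.35 ± 0.07, and all 7 values lay above 0. The FDR was 0.249 without and 3.89e-05 with the block. Tnnt3 was 1.17-fold higher on CAST, with ratios of 0.15 to 0.43, a mean of 0.23 ± 0.11, and an FDR of 0.493 without and 0.00324 with the block. Tnnc2 leaned to B6 in 5 of 7 mice, with a mean of -0.13 ± 0.14 and a low of -0.39 in mouse 4. Its FDR was 0.897 without the block, 0.138 in the blocked likelihood-ratio test and 0.217 in the blocked quasi-likelihood test. The adjusted p of the sign-flip test was 0.177, so the call of Tnnc2 depended on the test. Without mouse 4 the mean ratio moved to -0.08, and the FDR of the blocked likelihood-ratio test was 0.22.

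Tnnt3 lies 54.4 kb from Tnni2, the fast inhibitory subunit of troponin, and 59.5 kb from H19, an imprinted non-coding RNA. Tnni2 had a mean ratio of -0.03 ± 0.08, above 0 in 3 of 7 mice, with a blocked FDR of 0.924. The ratio of Tnnt3 exceeded that of Tnni2 in 7 of 7 mice, by 0.26 ± 0.12 (unplanned comparison, exact permutation p of 0.0156). All 4 of the genes on chromosome 7, Ckm, Mylpf, Tnnt3 and Atp2a1, were higher on CAST in 7 of 7 mice. That was the case for 30.3% of the 142 well-counted genes of chromosome 7, and the genes were not chosen by position.

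Of the genes of the Z-disc, energy supply and calcium handling, Atp2a1 gave the steadiest ratio, 0.11 ± 0.03 with a range of 0.07 to 0.15, or 1.08-fold higher on CAST. Its FDR was 0.77 without and 0.000179 with the block. Ckm was 1.07-fold higher on CAST, with ratios of 0.03 to 0.19, a mean of 0.10 ± 0.05, and an FDR of 0.773 without and 0.00219 with the block. Actn3 was lower on CAST, with ratios of -0.04, -0.08, -0.11, -0.12, -0.33, -0.03 and -0.08 and a mean of -0.11 ± 0.10. Its FDR was 0.874 without and 0.12 with the block. Without mouse 5, which gave -0.33, the blocked log2 difference of Actn3 moved from -0.09 to -0.06 and its FDR was 0.0671. Pvalb straddled 0, with a range of -0.03 to 0.12 and a mean of 0.02 ± 0.06, and a blocked FDR of 0.212.

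Across the 10 genes edgeR's coefficient of variation of the allele counts was 0.199 to 0.462 without the block and 0.00988 to 0.0624 with it. Summed over the 10 genes, CAST gave 50.3% to 51.3% of the counts. The median of the 10 mean ratios was 0.05, beside 0.00 over the 1660 well-counted genes.

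Alignment allowed mismatches, so reads of near-identical genes can be shared. Of the 75-base windows of the Myh1 transcripts, 15.8% also occur exactly in another gene, and 11.9% of the windows occur in Myh2. The values were 9.68% for Myh4, with 4.90% in Myh1, and 0.394% for Acta1. None of the windows of the other 7 genes occurred in another gene. The totals of Acta1, Ckm, Tnnc2, Myh1, Myh4 and Atp2a1 were not whole numbers in any mouse, whereas those of Mylpf, Tnnt3, Pvalb and Actn3 were whole in all 7. The values of Myh1, Myh4, Myh2, Myh8 and Myh3 are therefore uncertain to the extent of these shared reads. Exact windows do not show sharing within the mismatches allowed. Acta1, Ckm, Tnnc2 and Atp2a1, whose totals were not whole either, may thus also hold shared reads. The part of shared reads in the allele ratios was not tested.

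Along the chromosome 11 cluster the allele ratios differed from gene to gene. Myh2 ends 2.54 kb before Myh1 and had a mean ratio of -0.30 ± 0.18, below 0 in 6 of 7 mice, with an FDR of 0.753 without and 0.00845 with the block. The ratio of Myh1 was lower than that of Myh2 in 7 of 7 mice, by -0.32 ± 0.19 (unplanned comparison, exact permutation p of 0.0156). Myh8, 16.7 kb beyond Myh4, was 1.66-fold higher on CAST, with a mean ratio of 0.73 ± 0.20 at 206 counts per mouse and an FDR of 0.0022 without and 0.000341 with the block. Myh3, the embryonic chain, was 2.86-fold higher on CAST, with a mean ratio of 1.52 ± 0.62 at 66.5 counts per mouse and an FDR of 1.15e-06 without and 0.00256 with the block. Both were above 0 in 7 of 7 mice. Of the 75-base windows of Myh8, 7.04% also occur in Myh2, Myh1 or Myh4, and its 206 counts stand beside 49865 for Myh4. Of the windows of Myh3, 1.84% occur in another gene, and the totals of Myh3 were not whole numbers in any of the 7 mice. Myh13, at 5.35 counts per mouse, leaned to B6 in 6 of 7 mice with a mean of -1.19 ± 1.54 and was not called (FDR 0.591 without and 0.461 with the block). None of Myh2, Myh1 and Myh4 was called in the direction of these developmental chains.

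**Figure D4:**
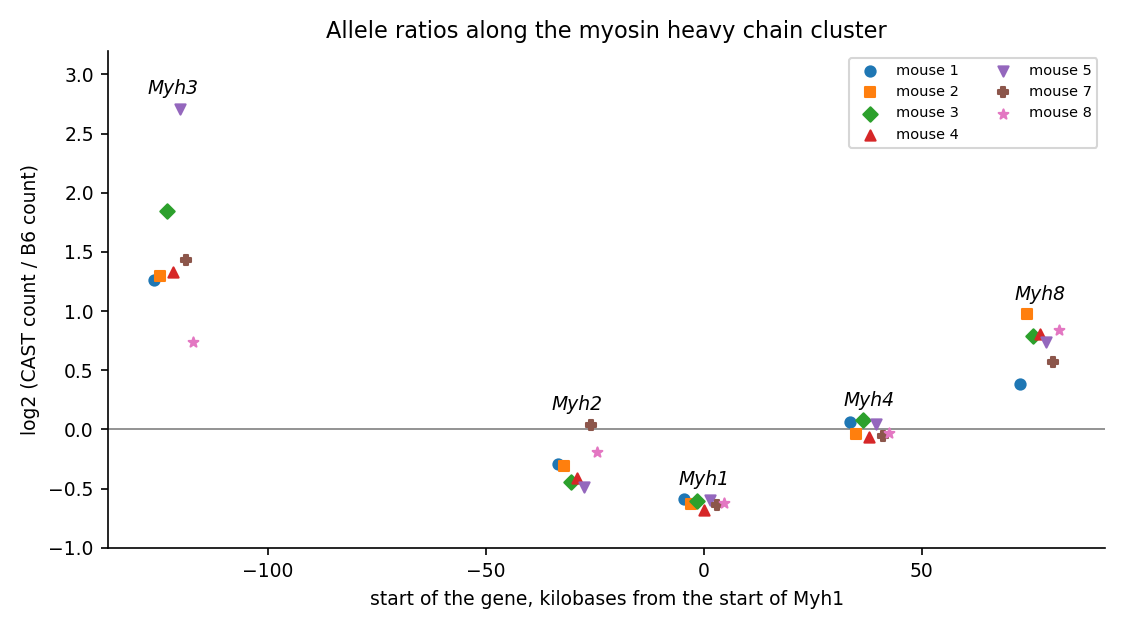
Log2 ratio of the CAST to the B6 count (vertical) of 5 myosin heavy chain genes in each mouse (symbols, spread sideways for clarity) against the distance of the gene's start from that of Myh1 in kilobases (horizontal). Myh3 and Myh8 lay above 0 in all 7 mice, Myh1 below 0 in all 7, and Myh4 around 0.

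The remaining muscle genes were read from fixed lists, with a call again meaning an FDR under 0.20. Of 15 other fast fibre genes, all tested, the unblocked test called 1, Apobec2, an mRNA-editing family member of muscle, with a mean ratio of 0.45 ± 0.41 towards CAST. The unblocked test called 32.6% of all genes. The blocked quasi-likelihood test called 7 higher on B6 and 1 higher on CAST, where it called 37.6% of all genes, 19.3% higher on B6 and 18.3% higher on CAST. Of the well-counted genes it called 63.4%. Whether the list differs from other genes was not tested. The median ratio of the 14 with a mean of at least 100 counts was -0.11, beside 0.00 over 11763 genes of that kind. Their summed level ranged over 2.39-fold between mice, lowest in mouse 4 and highest in mouse 1, as did that of the 10 genes over 2.24-fold.

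Of 12 slow fibre genes, 2 were called without the block, beside 32.6% of all genes. Myoz2, a Z-disc protein of slow fibres and heart, had a ratio of 1.44 ± 0.42 towards CAST, and Tpm3, a tropomyosin also made outside muscle, had -0.17 ± 0.05. The blocked quasi-likelihood test called 2 in each direction, beside 37.6% of all genes. The slow chain Myh7 was at 0.775 to 7.19 CPM, and the slow troponin genes Tnni1, Tnnt1 and Tnnc1 had mean levels of 0.224, 0.667 and 0.507 CPM per kilobase. Their fast counterparts Tnni2, Tnnt3 and Tnnc2 stood at 133, 170.4 and 183 CPM per kilobase.

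Of 16 sarcomere and membrane genes used by both fibre kinds, 3 were called without the block, beside 32.6% of all genes. All 3 were towards B6: Klhl41, a thin-filament stabilizer, at -0.49 ± 0.19, and Smpx and Dmd. The latter pair are X-linked, and these males carry only the maternal X, so their ratios are not a comparison of alleles. With the block, 6 were called higher on CAST and 4 higher on B6, beside 37.6% of all genes and 63.4% of the well-counted ones. The 4 were Smpx and Dmd with Myom1 and Klhl41. This list was not compared with genes of matched count. Of 5 developmental isoforms 4 were tested, and Myh3 and Myh8 were called with and without the block, where 37.6% and 32.6% of all genes were called. Of 8 myogenic regulators 6 were tested. The unblocked and the blocked quasi-likelihood tests each called 1 in each direction, beside 32.6% and 37.6% of all genes. Musk, the receptor kinase of the neuromuscular junction, was called higher on CAST at 1.33 ± 0.50, and Myod1, a determination factor, was called higher on B6 at -0.56 ± 0.67, with 20.3 counts per mouse and blocked FDR 0.132.

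Of 14 paralogs of the 10 genes, 13 were tested. Myh8 and Actn1, the non-muscle alpha-actinin, were called higher on CAST without the block, Actn1 at 0.15 ± 0.06. The test without the block called 32.6% of all genes. With the block 4 were called higher on CAST and 1 higher on B6, again beside 37.6% of all genes and 63.4% of the well-counted ones. Cardiac actin Actc1 did not follow Acta1 across mice. The count ratio of Actc1 to Acta1 was 0.0401, 0.0465 and 0.0335 in mice 2, 4 and 8, and 0.0125 to 0.0244 in the others.

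Likeness of pattern was measured without library size, as the SD over the 7 mice of a gene's log2 count minus the mean log2 count of the 10 genes. Among 11759 other genes reaching 50 counts in each mouse, the median SD was 0.43. The 10 nearest were Tnni2 (0.06), Coq10a (0.07), Eno3 (0.07), Pgam2 (0.08), Rtn2 (0.08), Tmem38a (0.09), Rpl3l (0.09), Myom2 (0.09), Tpm1 (0.10) and Trim72 (0.10). Of these, Tnni2, Eno3, Pgam2 and Myom2 were in the fixed lists. Among the 10 genes themselves, each set against the other 9, Tnnc2 was nearest at 0.03 and Tnnt3 next at 0.09. Acta1, Mylpf, Atp2a1, Pvalb and Actn3 lay between 0.15 and 0.17, Ckm at 0.25 and Myh4 at 0.26. Myh1 was farthest, at 0.73, and its level relative to the other 9 ranged over 3.91-fold, highest in mouse 3 and lowest in mouse 2.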

How the data were processed

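Total RNA of 7 growth plate samples, 1 per mouse, was depleted of ribosomal RNA and sequenced as 75-base read pairs with a stranded kit. Per the labels and the study's methods, the authors aligned reads with Bowtie (up to 3 mismatches, all best alignments) to a joint B6 (mm10) and CAST transcriptome and deposited EMASE estimated counts per gene and allele; the submitters' notes also name SAMtools. Reads that fit several genes or both alleles are divided by that model, so an estimated count carries less allele information than its size. Versions are not given in the sources used here. Gene names came from GENCODE M21.

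Counts were rounded and tested with edgeR 4.0.16 (limma 3.58.1, R 4.3.3): TMM scaling, glmFit and glmLRT of CAST against B6, genes with a count above 0 for an allele in every mouse, FDR under 0.20. Of the 21805 tested genes, 1406 had a mean under 1 count, since the tables hold traces far below 1 read. The mouse as a replicate block was the alternative, since both alleles of a number come from the same animal. Deviations of the alleles from their means correlated at 0.18 on average within a mouse and at -0.03 between mice over 15111 genes, and 4 of 7 mice correlated best with themselves. DESeq2 1.42.0 and quasi-likelihood fits were further alternatives. The exact two-sided sign-flip test used log2((CAST + 0.5)/(B6 + 0.5)) over the 128 sign patterns. No 2 mice agreed within sampling noise (chi-square per degree of freedom at least 14.4 over 21 pairs). Fits were tested on simulated data. Intervals over mice cover these animals only. Depth was 14098019 to 37849667 counts per mouse; every one of the 10 genes had at least 1465 counts in each mouse.

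Named were the 10 genes, genes of the fixed lists that passed in both fits or were paralogs or neighbours, and the 10 genes most alike. The members and lists were chosen with earlier results of these data known. Python 3.11.15 was used for the rest.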

Additional observations from a re-analysis of the deposited data

Results flagged for a closer look

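In 3 of 25 sets of 7 mice, 1 mouse lay apart from the others by Dixon's test at the 95% level, where chance gives about 1 in 20 sets. The log2 CAST to B6 ratio of Acta1 was 0.20 in mouse 7 against 0.33 to 0.40 in the other 6 mice. The ratio of Actn3 was -0.33 in mouse 5 against -0.12 to -0.03 in the others. The level of Acta1 was 2311 CPM in mouse 1 against 785 to 1414 CPM in the others. The causes were not tested.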

How the results depend on the processing

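Of the 10 genes, 0 were called without the mouse as a replicate block in the main test, the quasi-likelihood test, DESeq2, and under 1 library size per mouse, raw column totals, a minimum of 10 counts, no filter, autosomal genes only, unrounded counts and an FDR of 0.05. With the replicate block, 9 were called by the likelihood-ratio test, 7 by the quasi-likelihood test, 8 by DESeq2 and 8 with 1 library size per mouse. Leaving out each mouse gave 0 to 1 call without the block, Acta1 passing without mouse 1 (FDR 0.1496). The comparisons of gene pairs were not planned. The leave-one-out fits with the block and the comparison with well-counted genes were added after the data were seen. These fits gave 7 to 9 calls in the likelihood-ratio test and 7 to 8 in the quasi-likelihood test, Tnnc2 joining without mouse 3 or mouse 8. Calls among all genes numbered 7111 in the main test and stayed within 1.5 times that under every alternative, from 4816 at an FDR of 0.05 to 9315 with the block.

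No log2 difference of the 10 genes turned direction in 190 refits with edgeR or DESeq2, although Myh4 ranged down to 0.00. The mean log2 ratio of Myh4, which was 0.00 and not called, turned to -0.01 without mouse 1, 3 or 5. The mean CPM moved by less than the SD over mice in 89 of 90 checks. The exception was Myh4, at 2373 CPM when 7SL, 7SK and mitochondrial RNA were left out of the total. On that scale and with TMM scaling, mouse 8 rather than mouse 1 was highest for Ckm and Mylpf. On the same scales mouse 5 rather than mouse 4 was lowest for Mylpf and Myh4. With TMM scaling alone, the lowest was mouse 7 for Tnnc2 and Atp2a1 and mouse 5 for Pvalb. All 7 mice share 1 cross direction and 1 condition, so no value here separates strain from parent of origin, and the exact test cannot give a p under 0.0156.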
